A study of Mus musculus with 30 samples.

Results

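The response to IL12 of CD8 T cells that lack Furin by their label was read from 10 RNA-seq libraries, out of 30 in the series. All 10 carry the genotype label Furin KO. Their titles mark 5 libraries as given IL12 and 5 as given no added cytokine. Naive CD8+ T cells of the spleen and lymph nodes of C57BL/6 mice at 8 weeks of age were purified with magnetic beads, so that both groups share the strain, the age and the cell source. Both were also stimulated alike, for 3 days in serum-free X-VIVO 20 medium, with plate-bound anti-CD3 and anti-CD28 at 5 µg/ml each, and IL12 was used at 10 ng/ml. The titles number the libraries of each group 63, 68, 70, 73 and 74, of which 63 is male and the other 4 female. WT cells given the same treatments (5 libraries each, numbered 62, 67, 71, 72 and 75, with 62 male) served as the comparison, and the remaining 10 libraries were of cells given TGFB1.

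The labels do not give the allele, the deleted part of Furin or the cells in which it is deleted, so these are cultures carrying that genotype label. They do not say that a number stands for an animal either, so the p-values measure the spread between these samples, which may be technical. Each library is of bulk RNA, in which fewer cells of a type and less RNA per cell cannot be told apart.

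IL12 is a cytokine that macrophages and dendritic cells release during infection. It binds a receptor of the chains IL12RB1 and IL12RB2, the kinases JAK2 and TYK2 then phosphorylate the transcription factor STAT4, and STAT4 enters the nucleus and switches on genes such as Ifng, which encodes interferon-gamma. In CD8 T cells this signal, added to those of the antigen receptor and CD28, is known for promoting cytotoxic effector differentiation. Interferon-gamma in turn acts on genes for GTPases and other proteins that defend cells against pathogens. FURIN is a protease of the secretory pathway that cuts precursor proteins into their mature forms, among them that of TGFB1, and its gene is itself a known target of IL12 and STAT4 in T cells.

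Values below are counts-per-million (CPM) in the order of libraries 63, 68, 70, 73 and 74. A gene is called where edgeR's quasi-likelihood test gave a Benjamini-Hochberg adjusted p below 0.05 over the 11718 genes tested. Fold changes are log2 values, IL12 minus no cytokine, with their standard error (SE), and "rose" and "fell" are used of called genes. Over all genes tested 8.49% rose, 5.74% fell and the median was 0, and counts of called members are to be read against these shares. The KO groups did not overlap in 17.3% of all genes tested, 1068 of them higher and 965 lower with IL12. Statements that the groups of a gene did not overlap are to be read against that share.

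Short stretches before the start sites of 6 genes show the letters that the STAT factors of these pathways are known to read, in 3 genes that rose (Ifng, Il18r1 and Il12rb2) and 3 that fell (Irf1, Tgtp2 and Irgm1). The sequences are RefSeq's for GRCm38.p6 and are given on the strand of the gene. For each gene the first window that held a match was taken, so the start sites were picked for the match. The start sites used for Il18r1 (chr1:40466006) and Irgm1 (chr11:48871420) lie inside the GENCODE spans of these genes, and so do their stretches. Capitals mark the gamma-activated sequence, TTCNNNGAA, which is bound by STAT dimers, and the interferon-stimulated response element, GAAANNGAAA, which is bound by complexes of STAT and interferon regulatory factors. Both were searched on both strands in the 250 bases before each start site. The stretch of Ifng lies at chr10:118440796-118440875 on the plus strand, with its site 249 to 241 bases before the start. That of Il18r1 lies at chr1:40465811-40465875 on the plus strand, with a site at 152 to 144 bases. That of Il12rb2 lies at chr6:67376269-67376348 on the minus strand, with a site at 123 to 115 bases. That of Irf1 lies at chr11:53769884-53769963 on the plus strand, with a site at 90 to 82 bases. That of Tgtp2 lies at chr11:49064243-49064322 on the minus strand, with a gamma-activated sequence at 81 to 73 bases and a response element at 70 to 61 bases. That of Irgm1 lies at chr11:48871421-48871500 on the minus strand, with overlapping response elements that begin 30 and 24 bases before the start.
Ifng: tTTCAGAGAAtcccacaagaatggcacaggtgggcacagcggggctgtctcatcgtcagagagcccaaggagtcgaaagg
Il18r1: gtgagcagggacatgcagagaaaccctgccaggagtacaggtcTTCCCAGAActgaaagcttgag
Il12rb2: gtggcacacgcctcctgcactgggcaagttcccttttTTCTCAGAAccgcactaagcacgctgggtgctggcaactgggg
Irf1: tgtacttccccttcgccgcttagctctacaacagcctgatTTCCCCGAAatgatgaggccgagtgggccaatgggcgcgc
Tgtp2: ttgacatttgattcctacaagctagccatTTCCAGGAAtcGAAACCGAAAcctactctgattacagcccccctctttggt
Irgm1: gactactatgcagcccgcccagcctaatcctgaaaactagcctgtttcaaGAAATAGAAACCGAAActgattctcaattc

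The promoter windows searched, which did not cover every chromosome, matched 8805 of the 11718 genes tested. The 250 bases held a gamma-activated sequence in 7.14% of these, a response element in 3.35% and both in 0.454%. Of the 32851 windows of that length searched, 7.02% held the first and 2.98% the second. Among 763 matched genes that rose the shares were 7.47% and 2.49%, and among 502 that fell they were 7.57% and 6.37%. Of the 17 matched genes of the IL12 and STAT4 target list that rose, 5 held a gamma-activated sequence and 1 a response element. Of the 13 matched genes of the interferon-gamma response list that fell, 6 held a gamma-activated sequence, 7 a response element and 5 both. Of the 15 matched genes of that list with no call, 3 held the first, 5 the second and 1 both. On the type I interferon response list, 26 matched genes had no call, of which 3 held the first, 15 the second and 2 both. Of its 3 matched genes that fell, 1 held the first, 1 the second and none both. A match of letters is a description of these windows, and binding was not measured.

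The libraries given no cytokine held 7621632 to 11292997 counts and those given IL12 8464699 to 15502443. On the first principal component of the 10 libraries (48.1% of the variance) those without cytokine lay between -28.5 and -22, and those with IL12 at 16.1, 15, 15.9, 28.5 and 50.7, so that library 74 and, less far, 73 stood apart within the IL12 group. The WT libraries given IL12 also differed among themselves, as described with the WT values. Library 74 held the highest CPM of the IL12 libraries in 623 of the 995 genes that rose (62.6%) and library 73 in 259 (26%). The median difference of these genes from the mean without cytokine was 0.52, 0.46, 0.51, 0.66 and 0.87 on the log2 scale. Counts for mitochondrial genes were 0.656% to 1.34% of a library without cytokine and 0.895% to 2.1% with IL12, with library 73 the highest and 74 the lowest of the IL12 group. Ribosomal protein genes took 9.63% to 10% without cytokine and 7.64% to 8.74% with IL12. The part of these shares in the results was not tested. Counts of calls in gene lists are also given without IL12 libraries 73 and 74 where these changed them.

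The label of CD8 T cells was met by the markers. Cd8a, Cd3e and the other 12 genes of the list of T cell defining genes summed to 5200 to 5510 CPM without cytokine and 4460 to 5020 with IL12. Of these 14 genes none rose and 2 fell, Cd8b1, a chain of the CD8 coreceptor (log2 fold change -0.49 ± 0.13 SE, adjusted p = 0.00995), and Zap70, a kinase of the antigen receptor (log2 fold change -0.31 ± 0.08 SE, adjusted p = 0.01), and without libraries 73 and 74 neither was called. All 3 CD4 T cell markers were measured and 1 rose, Cd40lg, described below, with no call without library 74. Their list summed to 11.7 to 16.6 CPM without cytokine and 14 to 29.6 with IL12. Cd4 held 35 counts in all 10 libraries and Zbtb7b 1380. Of 13 B cell markers 4 passed the filter on low counts. Their list summed to 509 to 586 CPM without cytokine and 194 to 430 with IL12, nearly all of it Ighm, while Pax5, Cd22 and Fcer2a were at 0 counts. Ighm fell (log2 fold change -0.68 ± 0.18 SE, adjusted p = 0.0106) and was not called without libraries 73 and 74 (-0.50). Igkc rose from at most 0.216 CPM to at most 1.34 CPM (log2 fold change 2.54 ± 0.75 SE, adjusted p = 0.0201), a call that was lost without library 63 of the group without cytokine (log2 fold change 2.39) or library 68 with IL12 (2.33). Of 16 myeloid markers 3 were measured, none was called, and their list summed to 4.19 to 9.9 CPM without cytokine and 4.51 to 7.5 with IL12, with C1qa at 0 counts. Of 10 dendritic cell markers 4 were measured and 2 rose, the transcription factors Batf3 and Zbtb46, with Xcr1, Clec9a, Siglech and Cd209a at 0 counts. The call of Zbtb46 (log2 fold change 0.83 ± 0.24 SE, adjusted p = 0.0179) was lost without library 74 with IL12 (0.67) or library 68 without cytokine (0.74). Of 11 markers of natural killer and gamma-delta T cells 4 were measured, 1 rose, Eomes, and the sum went from 12.1 to 23.1 CPM up to 33.1 to 44.8 CPM. Of 15 erythroid, platelet and stromal markers 4 were measured and 1 fell, the adhesion molecule Pecam1, with Hba-a1, Hba-a2, Col1a2, Col3a1 and Cdh5 at 0 counts. Their sum was 92.6 to 104 CPM without cytokine and 46.2 to 85.1 with IL12. The part of these cell types in the results was not tested.

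Added IL12 changed 1668 genes in the KO cells, 14.2% of those tested. Of these 995 rose (8.49%) and 673 fell (5.74%). Larger changes were mostly rises, since 354 genes rose at least 2-fold (3.02%) and 65 fell at least 2-fold (0.555%). Without library 74 of the IL12 group 668 genes rose (5.66%) and 375 fell (3.17%). Without libraries 73 and 74 of that group 378 rose (3.17%) and 168 fell (1.41%). The largest rises included Il23r, Hlx, Ifng and Il1rl1 and the largest falls Iigp1 and Cd86, which are described in turn and marked in the plot of fold change against p.

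**Figure D1:**
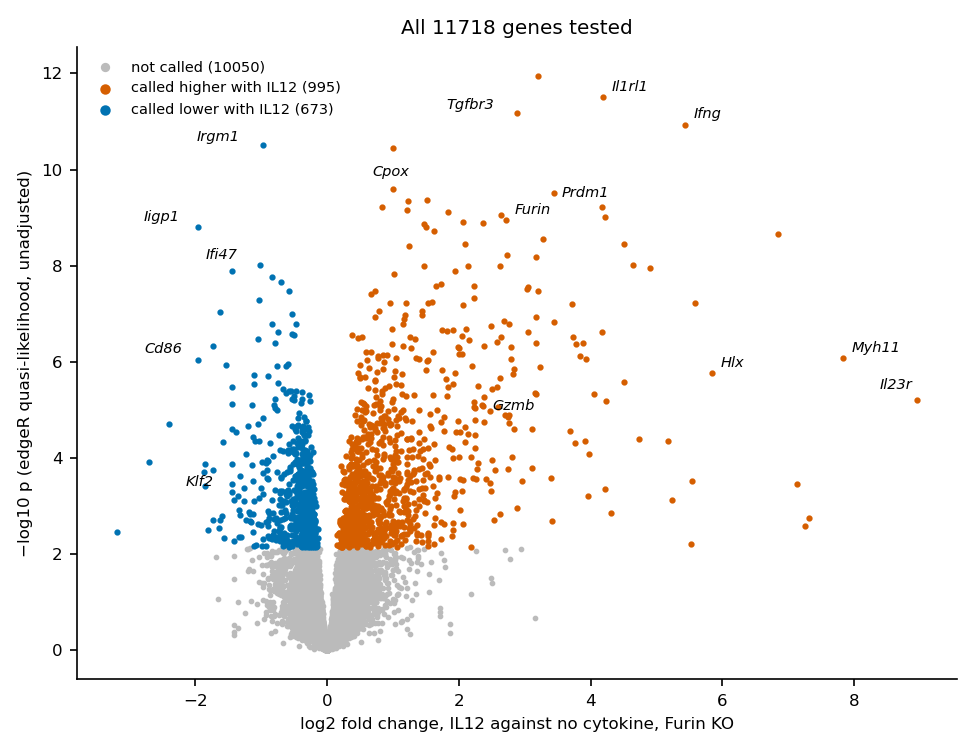
Log2 fold change (IL12 minus no cytokine, x axis) against -log10 of the unadjusted p (y axis) for the 11718 genes tested in KO cells, with the 995 genes that rose, the 673 that fell and the 10050 not called drawn apart. Genes past a 2-fold change lie mostly on the right, 354 against 65 on the left.

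Furin is described first, since it is the gene of the genotype label. Furin (chr7:80388585-80405436, GRCm38) was read at 32.5, 32.6, 32.6, 31.5 and 33.9 CPM without cytokine and at 161, 120, 132, 196 and 464 CPM with IL12. The 5 libraries without cytokine were near 32.6 CPM, every library with IL12 was above them, and library 74 was the highest. Furin transcript counts thus rose in cells labelled KO, from 32.6 ± 0.828 CPM (SD, n = 5) to 214 ± 142 CPM (log2 fold change 2.72 ± 0.31 SE, adjusted p = 7.77e-07). The exact two-sided permutation test of the log2 CPM gave p = 0.00794, the smallest it can give with 5 against 5. WT cells were at 36.1, 34.9, 34.3, 28.8 and 38.5 CPM without cytokine and 161, 182, 511, 533 and 485 CPM with IL12 (libraries 62, 67, 71, 72 and 75). Counts over the whole gene do not check the label, since the deleted part is not given. Of the 7 measured proprotein convertases and carboxypeptidase D, only Furin was called in KO cells, with a median of 0.14 over the list. Cpd, which encodes carboxypeptidase D, a protease that trims peptides after cleavage, was at 44.6, 49.6, 63.1, 31.5 and 74 CPM without cytokine and 47.2, 70.5, 73, 47.8 and 50.7 CPM with IL12, and its groups overlapped (log2 fold change 0.14 ± 0.24 SE, adjusted p = 0.759).

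The chains by which the cells sense IL12 and its partner IL18 were among the genes that rose. Il12rb2, the signalling chain of the IL12 receptor, was at 68.8, 52.7, 67.3, 101 and 57.4 CPM without cytokine and 186, 158, 159, 313 and 353 CPM with IL12. Every IL12 library was above every library without cytokine, with libraries 73 and 74 the highest (log2 fold change 1.75 ± 0.26 SE, adjusted p = 3.23e-05). The partner chain Il12rb1 was at 55, 63.1, 67, 44.6 and 66.8 CPM and 60.3, 59.5, 65.4, 48.5 and 96 CPM. Its groups overlapped, with only library 74 above the range without cytokine (log2 fold change 0.15 ± 0.15 SE, adjusted p = 0.571). Stat4, the transcription factor downstream, was at 78.9, 71.5, 74.7, 78.9 and 71.6 CPM and 69.9, 65.1, 68.9, 81.2 and 56.2 CPM, again with overlap (log2 fold change -0.14 ± 0.15 SE, adjusted p = 0.61). Il18r1, a chain of the receptor for IL18, a cytokine that acts together with IL12, was at 12.6, 16.3, 14.1, 12.7 and 11.5 CPM and 73.5, 73.7, 71.9, 97.2 and 129 CPM. The groups were far apart, with library 74 the highest (log2 fold change 2.73 ± 0.34 SE, adjusted p = 2.46e-06). Its partner chain Il18rap rose too (log2 fold change 2.10 ± 0.25 SE, adjusted p = 1.52e-06), as did Myd88, the adaptor that carries the IL18 signal (log2 fold change 0.60 ± 0.09 SE, adjusted p = 6.56e-05). Of the 11 genes of the list of the IL12 receptor and its signal relay, these 4 rose (36.4%), none fell, and the median was 0.17. The same number rose without library 74 and without libraries 73 and 74.

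Other cytokine receptors also moved. Of 31 measured, 11 rose (35.5%) and 2 fell (6.45%), with a median of 0.15, and 7 and 1 were called without libraries 73 and 74. Il1rl1, the receptor for IL33, an alarm cytokine of damaged tissue, was at 2.41, 4.28, 3.3, 2.38 and 2.6 CPM without cytokine and 33.3, 51.3, 43.6, 42.9 and 101 CPM with IL12. All 5 IL12 libraries were above the other 5 and library 74 stood above the rest (log2 fold change 4.19 ± 0.37 SE, adjusted p = 1.81e-08). Tgfbr3, the coreceptor betaglycan that presents TGFB ligands, rose in all IL12 libraries (log2 fold change 2.88 ± 0.26 SE, adjusted p = 2.66e-08). Il7r, the receptor for the survival cytokine IL7, was at 18.1, 14.6, 16.2, 28.9 and 13.7 CPM and 39, 24.8, 32.3, 72.3 and 46.5 CPM. Libraries 73 were the highest in both groups and the groups overlapped, yet the gene was called (log2 fold change 1.23 ± 0.30 SE, adjusted p = 0.00536), and it was not without libraries 73 and 74 (0.80). Il23r, a chain of the IL23 receptor, had 0 counts in all 5 libraries without cytokine and 2.66, 2.74, 1.55, 5.72 and 18.5 CPM with IL12, which is at least 99.8-fold higher than a floor of 3 counts over the group. The fitted log2 fold change of Il23r, which depends on the prior count, was 8.96, and 7.96 without library 74. Il2ra, the high-affinity chain for IL2, was at 884, 825, 859, 896 and 759.5 CPM and 1278, 1193, 1195, 1310 and 1774 CPM and did not pass the test although its groups did not overlap (log2 fold change 0.68 ± 0.24 SE, adjusted p = 0.0589), while 5 of 23 alternative fits called it. Il6ra, which binds IL6, fell in all 5 libraries (log2 fold change -1.44 ± 0.29 SE, adjusted p = 0.000981).

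Ifng rose furthest among the cytokine genes named. Ifng (chr10:118441046-118445892, GRCm38) was at 8.67, 20.2, 26.5, 8.64 and 10.9 CPM without cytokine and 338, 419, 439.8, 566 and 1425 CPM with IL12. The lowest IL12 library was above 10 times the highest library without cytokine, and library 74 was far above the other 4. The mean went from 15 ± 8.03 CPM (SD, n = 5) to 638 ± 448 CPM (log2 fold change 5.43 ± 0.51 SE, adjusted p = 3.4e-08). Il3, a growth factor for blood cells, also rose (log2 fold change 2.10 ± 0.44 SE, adjusted p = 0.00149), as did Inhba, which encodes the beta-A subunit of activins, from 0.447, 0.417, 0.66, 0.108 and 0.2 CPM to 2.2, 3.06, 3.1, 2.56 and 16.1 CPM. Its groups did not overlap, and library 74 alone was above 4 CPM (log2 fold change 3.88 ± 0.60 SE, adjusted p = 4.78e-05, and 2.90 without library 74). Il10, which encodes a cytokine that dampens immune responses, had 2 counts in all 5 libraries without cytokine and 63 with IL12, a ratio of 25.1 with a 95% interval of 6.66 to 212 that covers counting error only. Its call (adjusted p = 0.0157) was lost without library 74 (adjusted p = 0.06). Il1a, which encodes an alarm cytokine, was called (log2 fold change 2.62 ± 0.75 SE, adjusted p = 0.0167) and lost the call without library 74 (1.66, adjusted p = 0.162).

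Other cytokines of activated T cells did not pass the test, though Tnf was near its threshold. Il2, the growth factor of T cells, was at 8.85, 16.5, 21, 4.1 and 15.9 CPM and 14.1, 21.8, 27.2, 13.9 and 34.4 CPM. The groups overlapped, with library 73 low in both (log2 fold change 0.76 ± 0.41 SE, adjusted p = 0.23). Tnf, an inflammatory cytokine, was at 16.5, 21.7, 23.1, 14.7 and 15 CPM and 23.9, 26.2, 28.6, 18.8 and 38.3 CPM, with overlap (log2 fold change 0.58 ± 0.20 SE, adjusted p = 0.0507), and 12 of 23 alternative fits, DESeq2 and limma-voom among them, called it higher. Tgfb1, whose product FURIN cleaves, was at 239.7, 256, 236, 240.1 and 249 CPM and 256, 226, 238, 217 and 250.5 CPM, with overlap (log2 fold change -0.04 ± 0.08 SE, adjusted p = 0.784). Of 22 cytokine genes measured, 6 rose (27.3%) and 1 fell (4.55%), with a median of 0.56. Without library 74 the counts were 3 and 1, and without 73 and 74 they were 3 and 0.

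**Figure D2:**
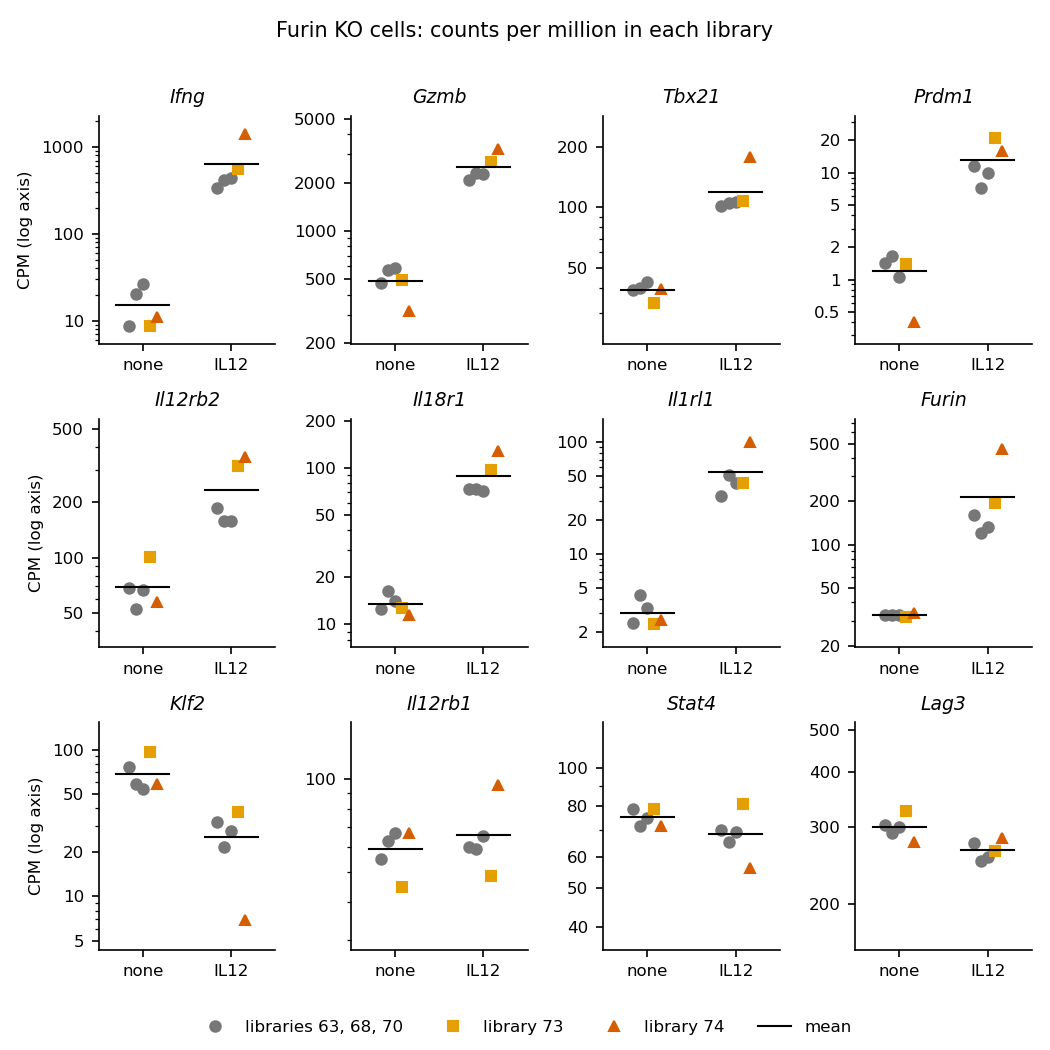
CPM on a log axis (y) of 12 genes in the KO libraries without cytokine and with IL12 (x), with circles for libraries 63, 68 and 70, squares for 73, triangles for 74 and a line at each group's mean. In Ifng, Gzmb, Tbx21, Prdm1, Il12rb2, Il18r1, Il1rl1, Furin and Klf2 the groups do not overlap, and in Il12rb1, Stat4 and Lag3 they do. Over all genes tested 17.3% did not overlap.

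The list of IL12 and STAT4 target genes moved mostly upward. It was drawn up from the known biology of the pathway, but with earlier results of these data known, so its count is no independent support. Of its 29 measured genes 21 rose (72.4%), 1 fell (3.45%) and 7 were not called, and the median was 1.01. The medians of the single IL12 libraries were 0.74, 0.77, 0.76, 1.17 and 1.6. Without library 74, 16 rose and 1 fell, and without libraries 73 and 74, 12 rose and 1 fell. The members beside those given above were Hlx, a homeobox factor that works with T-bet, Gadd45g, a stress-induced adaptor of the p38 pathway (log2 fold change 2.80 ± 0.45 SE, adjusted p = 8.29e-05), and Socs3, a feedback inhibitor of cytokine signalling. Hlx had 2 counts over the 5 libraries without cytokine and 186 with IL12, a ratio of 74.1 (95% interval 20.2 to 616, counting error only, adjusted p = 0.000139), and its fitted log2 fold change of 5.85 was 4.75 without library 74. Socs3 was at 18.6, 11.9, 16.1, 29.1 and 12.2 CPM and 31, 22.7, 26.6, 45.3 and 47.1 CPM. Library 73 was the highest without cytokine and lay within the IL12 range (log2 fold change 0.97 ± 0.27 SE, adjusted p = 0.0125), and without library 74 the gene was not called (0.84, adjusted p = 0.0532). Socs1, a related inhibitor, did not pass the test (log2 fold change 0.43 ± 0.18 SE, adjusted p = 0.103). The gene that fell was Irf1, described with the interferon-induced genes.

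Transcription factors of effector T cells were among the genes that rose. Tbx21, which encodes T-bet, the factor that directs type 1 effector differentiation, was at 38.9, 40.1, 42.8, 33.7 and 39.2 CPM without cytokine and 102, 106, 106, 107 and 177 CPM with IL12. All IL12 libraries exceeded all others, 4 of them by a like amount and library 74 by more (log2 fold change 1.62 ± 0.19 SE, adjusted p = 9.81e-07). Prdm1, which encodes BLIMP1, a factor of terminal effector cells, was at 1.43, 1.67, 1.06, 1.4 and 0.4 CPM and 11.4, 7.2, 9.92, 21.2 and 15.9 CPM. It was near the detection limit without cytokine and higher in every IL12 library, most in 73 (log2 fold change 3.44 ± 0.37 SE, adjusted p = 4.45e-07). Eomes, a T-box factor related to T-bet, rose from 7.24, 6.05, 11.5, 9.61 and 6.09 CPM to 21.5, 18.8, 20.8, 34.6 and 27 CPM without overlap (log2 fold change 1.61 ± 0.29 SE, adjusted p = 0.0003). Id2, an inhibitor of E proteins that sustains effector cells, rose (log2 fold change 1.02 ± 0.13 SE, adjusted p = 4.39e-06), while Id3, its counterpart in memory precursors, was at 67.8, 76.3, 65.7, 65.1 and 73.1 CPM and 67.3, 67.8, 74.1, 44.3 and 70.6 CPM. Its groups overlapped and library 73 with IL12 was the lowest (log2 fold change -0.10 ± 0.24 SE, adjusted p = 0.836). Batf3, a partner of AP-1 factors (log2 fold change 2.24 ± 0.48 SE, adjusted p = 0.00188), Hopx, a homeobox cofactor (log2 fold change 1.91 ± 0.28 SE, adjusted p = 3.23e-05), and the orphan nuclear receptor Nr4a2 (log2 fold change 0.86 ± 0.19 SE, adjusted p = 0.00242) rose as well. Of 28 effector transcription factors measured, 13 rose (46.4%) and 1 fell (3.57%), with a median of 0.57. Without library 74 the counts were 12 and 0, and without libraries 73 and 74 they were 11 and 0.

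The cytotoxic genes rose or were not called, and none fell. Gzmb, the granzyme that starts apoptosis in target cells, was at 469.5, 566, 583, 491 and 315 CPM without cytokine and 2070, 2298, 2251, 2696 and 3261 CPM with IL12. The lowest IL12 library held more than 3 times the CPM of the highest library without cytokine (log2 fold change 2.38 ± 0.43 SE, adjusted p = 0.000331). Prf1, which encodes perforin, the pore that lets granzymes in, was at 98.5, 152, 146, 68.7 and 121 CPM and 206, 239, 243, 195 and 389.7 CPM. The groups did not overlap, and library 73 was the lowest of each (log2 fold change 1.12 ± 0.24 SE, adjusted p = 0.00205). Gzmc, another granzyme, rose from a low level (log2 fold change 2.36 ± 0.44 SE, adjusted p = 0.000448), and Tnfsf10, which encodes the death ligand TRAIL, rose (log2 fold change 2.06 ± 0.24 SE, adjusted p = 7.77e-07). Serpinb9b, a granzyme inhibitor with close paralogs that could share its reads, rose as well (log2 fold change 1.40 ± 0.30 SE, adjusted p = 0.00206). Gzma, a granzyme of mature killer cells, was at 0.626, 1.98, 0.924, 1.83 and 1.1 CPM and 1.04, 1.66, 2.42, 4.1 and 1.73 CPM, with overlapping groups near the detection limit (log2 fold change 0.77 ± 0.69 SE, adjusted p = 0.514). Of 22 measured cytotoxic genes 11 rose (50%), none fell and the median was 0.67. Without libraries 73 and 74, 9 rose.

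Chemokine genes and migration receptors followed with fewer calls. Ccr2, the receptor for monocyte chemokines, rose from below 1 CPM (log2 fold change 2.64 ± 0.40 SE, adjusted p = 3.96e-05), and so did P2rx7, a channel gated by extracellular ATP (log2 fold change 2.74 ± 0.53 SE, adjusted p = 0.000661, and 2.09 without library 74), and Itga2, the alpha-2 integrin for collagen (log2 fold change 1.70 ± 0.41 SE, adjusted p = 0.00483), which was not called without libraries 73 and 74 (1.32). Cxcr6, a receptor of tissue-homing T cells, rose (log2 fold change 1.19 ± 0.31 SE, adjusted p = 0.00961) and lost its call without library 74 (0.97, adjusted p = 0.0528). Cxcr3, the receptor for interferon-induced chemokines, did not pass and was low in all libraries (log2 fold change 0.46 ± 0.47 SE, adjusted p = 0.58). Of 32 migration receptors and integrins measured, 7 rose (21.9%) and 1 fell (3.12%), with a median of 0.33, and without libraries 73 and 74 the counts were 5 and 0.

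Among chemokine ligands, Ccl9 was at 16.9, 25.7, 26.3, 9.72 and 23.2 CPM without cytokine and 53.7, 79, 71.4, 76 and 197 CPM with IL12. No IL12 library lay within the other range and library 74 was the highest by far (log2 fold change 2.24 ± 0.42 SE, adjusted p = 0.000467). Ccl3, a chemokine for monocytes and T cells, rose (log2 fold change 1.09 ± 0.28 SE, adjusted p = 0.0082) and lost its call without library 74 (0.82, adjusted p = 0.0558). Cxcl10, a ligand of CXCR3 that interferon-gamma induces, was at 0.179, 0.626, 1.32, 0.54 and 0.4 CPM and 1.97, 1.21, 1.9, 4.27 and 7.08 CPM. Library 70 without cytokine lay above library 68 with IL12, and the highest values were in 73 and 74 (log2 fold change 2.48 ± 0.61 SE, adjusted p = 0.00591), without which it was not called (adjusted p = 0.216). Cxcl11, another CXCR3 ligand, had 0 counts without cytokine and 34 with IL12, at least 9.03-fold higher than a floor of 3 counts over the group. Its call (adjusted p = 0.0456) was lost without library 74 (5.02, adjusted p = 0.121), without library 73 of the IL12 group (5.14) and when any 1 of the 5 libraries without cytokine was left out. Ccl5, known from effector and memory T cells, did not pass (log2 fold change 0.56 ± 0.33 SE, adjusted p = 0.284), nor did Xcl1, a ligand for dendritic cells (log2 fold change 0.69 ± 0.33 SE, adjusted p = 0.169). Of 13 chemokine genes 4 rose (30.8%), none fell and the median was 0.69. Without library 74, 2 rose, and without 73 and 74, 1 rose.

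Several of the 12 largest rises were of genes close to silent without cytokine. P2rx3, a channel gated by ATP, was at 0.179, 0.104, 0.264, 0.216 and 0.0999 CPM without cytokine and 11.1, 8.21, 10.5, 27.7 and 46.7 CPM with IL12. The groups were far apart, with libraries 73 and 74 the highest (log2 fold change 6.85 ± 0.81 SE, adjusted p = 1.08e-06). Myh11, which encodes a smooth muscle myosin, had 1 count in the group without cytokine and 452 with IL12, a ratio of 360 (95% interval 64.3 to 14300). Mmp10, a matrix metalloproteinase, had 2 counts and 462, a ratio of 184 (95% interval 50.6 to 1520), and it was not called without libraries 73 and 74 (5.01). Both intervals cover counting error only. The fitted log2 fold change of Myh11 was 7.83, with 6.70 without library 74 with IL12 and 9.25 without library 73 of the other group. That of Mmp10 was 7.14, with 5.48 without library 74 with IL12 and 9.25 without library 74 of the other group. In the 5 IL12 libraries Myh11 was at 4.05, 1.47, 1.47, 7.17 and 24.1 CPM and Mmp10 at 1.5, 2.04, 1.64, 4.44 and 28.5 CPM. Library 74 held most of the reads of both, and the other 4 libraries were also above every library without cytokine.

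Atp6v0d2, a subunit of the proton pump of lysosomes, rose from 1.52, 1.77, 1.32, 0.216 and 1.3 CPM to 22.1, 17.7, 17.2, 38.4 and 91 CPM without overlap (log2 fold change 4.90 ± 0.62 SE, adjusted p = 3.69e-06, and 4.26 without library 74). Mgll, an enzyme that splits monoglycerides, rose from below 1 CPM (log2 fold change 4.06 ± 0.72 SE, adjusted p = 0.0003, with 3.13 without library 74 and 4.80 without library 68 of the group without cytokine). The surface protein Mpzl2 rose from at most 1.19 CPM (log2 fold change 4.50 ± 0.54 SE, adjusted p = 1.52e-06, and 5.11 without library 70 of the group without cytokine). Tnfrsf8, which encodes CD30, a costimulatory receptor, was at 1.7, 1.88, 1.45, 1.51 and 1.5 CPM and 14, 9.43, 10.7, 46.7 and 65.9 CPM. Libraries 73 and 74 were at least 3 times the other IL12 libraries, which themselves were above all without cytokine (log2 fold change 4.18 ± 0.62 SE, adjusted p = 3.41e-05). Ctla2a, a cysteine protease inhibitor with a close paralog that could share its reads, rose to a similar level in all 5 IL12 libraries (log2 fold change 4.18 ± 0.46 SE, adjusted p = 5.9e-07). Cpox, an enzyme of heme synthesis, was among the 6 genes with the smallest p that rose (log2 fold change 1.00 ± 0.11 SE, adjusted p = 4.21e-07).

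Genes known to be induced by interferon-gamma were among those that fell, in the same cultures in which Ifng rose. Of the 39 measured genes of the interferon-gamma response list, 16 fell (41%), 1 rose (2.56%) and 22 were not called, and the median was -0.36. The single IL12 libraries had medians of -0.15, -0.41, -0.37, -0.08 and -0.54. Without library 74, 14 fell and 1 rose, and without libraries 73 and 74, 13 fell and none rose. Irgm1, a GTPase that defends cells against intracellular pathogens (chr11:48861968-48871683, GRCm38), was at 101, 87.3, 92.5, 114 and 91.1 CPM without cytokine and 51.2, 46.5, 54.3, 53.8 and 42.8 CPM with IL12. Every IL12 library was below every other, and this gene had the smallest p of the named genes that fell (log2 fold change -0.97 ± 0.09 SE, adjusted p = 6.91e-08). Iigp1, a GTPase of the same family, was at 106, 72, 81.2, 145 and 71 CPM and 32, 22.7, 23, 31.6 and 12.9 CPM. All IL12 libraries were lower, with 73 the highest without cytokine and 74 the lowest with IL12 (log2 fold change -1.97 ± 0.23 SE, adjusted p = 8.46e-07). Ifi47 fell from 355, 278, 309, 398 and 309.8 CPM to 194, 164, 159.7, 181 and 113 CPM, likewise without overlap (log2 fold change -1.03 ± 0.13 SE, adjusted p = 3.4e-06). Tgtp1 (log2 fold change -1.11 ± 0.19 SE, adjusted p = 0.00015) and Tgtp2 (log2 fold change -1.44 ± 0.18 SE, adjusted p = 3.98e-06) are near-identical neighbours that can share reads, so their separate values are uncertain, and both fell. Gbp6, a guanylate-binding protein gene with close paralogs, fell (log2 fold change -1.33 ± 0.32 SE, adjusted p = 0.00472), with library 73 with IL12 within the range without cytokine.

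The regulators of these genes were read as well. Irf1, a transcription factor induced by interferon-gamma, was at 96.5, 87.3, 84, 109 and 85.2 CPM without cytokine and 65.7, 56.8, 62.2, 65.3 and 62 CPM with IL12. There was no overlap, and the IL12 libraries lay close together (log2 fold change -0.57 ± 0.13 SE, adjusted p = 0.0041). Irf8, another interferon regulatory factor, was at 179.6, 199, 222, 168 and 185 CPM and 219, 221, 226, 207 and 307 CPM, and its groups overlapped (log2 fold change 0.31 ± 0.16 SE, adjusted p = 0.2). The gene of the list that rose was the chemokine Cxcl10, given above.

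**Figure D3:**
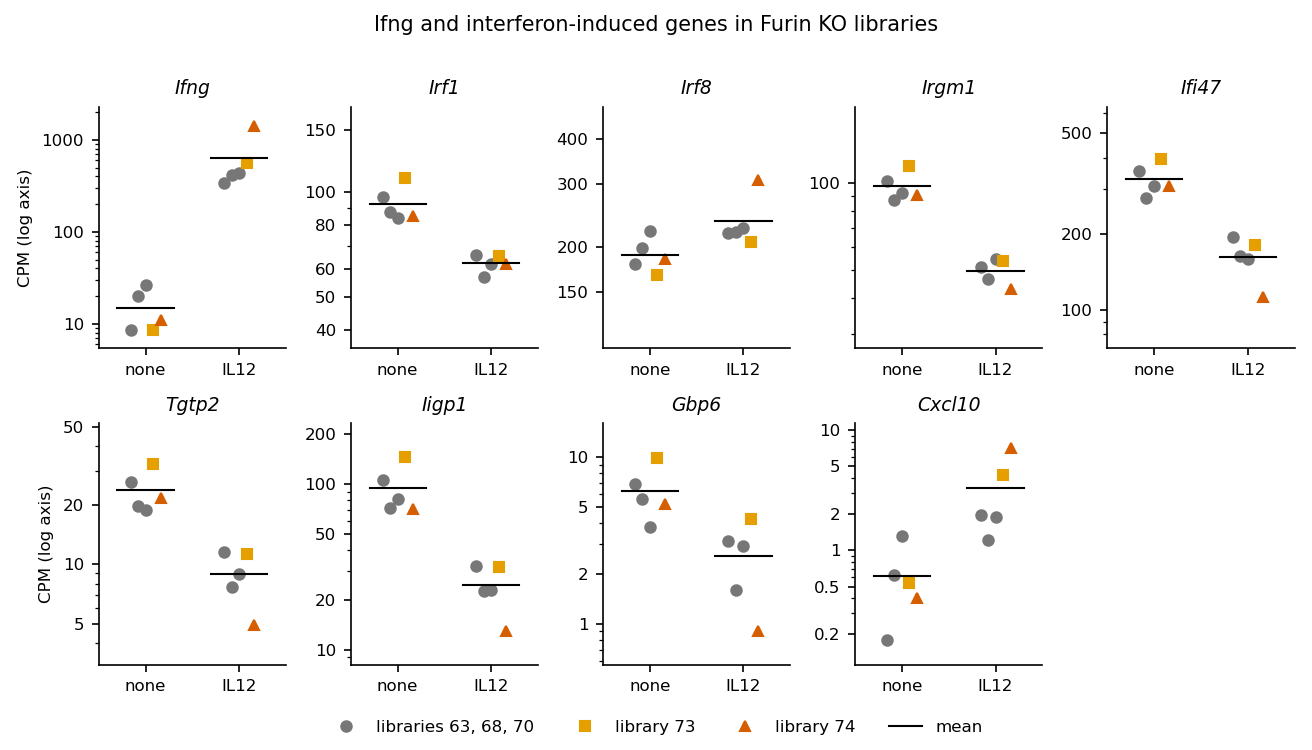
CPM on a log axis (y) of Ifng and 8 genes known to respond to interferon in the KO libraries without cytokine and with IL12 (x), with circles for libraries 63, 68 and 70, squares for 73, triangles for 74 and a line at each group's mean. Ifng is higher in every IL12 library, while Irf1, Irgm1, Ifi47, Tgtp2 and Iigp1 are lower in every IL12 library, Irf8 and Gbp6 overlap between groups, and Cxcl10 lies higher with overlap.

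The list of genes that respond to type I interferon had fewer calls. Of 37 measured, 5 fell (13.5%) and 2 rose (5.41%), and the median was -0.42. Without libraries 73 and 74, 3 fell and 1 rose. Ifi27l2a, an interferon-induced protein of mitochondria, was at 93.4, 57.4, 64.3, 143 and 64.7 CPM without cytokine and 44.1, 32.4, 37.9, 39.5 and 26.2 CPM with IL12. The groups did not overlap, with libraries 63 and 73 the highest without cytokine (log2 fold change -1.24 ± 0.27 SE, adjusted p = 0.00229). Ifi203, of a family of DNA-binding interferon-induced proteins, fell (log2 fold change -1.19 ± 0.34 SE, adjusted p = 0.0156) and was not called without libraries 73 and 74 (-0.98). Usp18, a protease that removes the ubiquitin-like ISG15 and dampens the type I interferon receptor, was at 3.31, 2.09, 1.98, 7.13 and 2.4 CPM and 16.9, 13.6, 14.2, 29.1 and 77.4 CPM. It rose in a list with a negative median, with library 74 the highest (log2 fold change 3.15 ± 0.56 SE, adjusted p = 0.000293, and 2.44 without library 74). Ifitm3, which blocks the entry of viruses, rose as well (log2 fold change 1.39 ± 0.29 SE, adjusted p = 0.00158), and was not called without libraries 73 and 74 (0.85).

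The MHC class II pathway, which presents antigen to CD4 T cells, had 12 measured genes. Of these 3 fell (25%), none rose and the median was 0.07. The same 3 in number were called without library 74 and without 73 and 74. The other 9 were not called. Of these, H2-Aa (0.83), H2-Ab1 (0.74), Cd74 (0.70), H2-DMb1 (0.68), H2-Eb1 (0.39), Rfx5 (0.11) and Cd80 (0.02) lay above 0. H2-DMa (-0.06) and H2-Oa (-0.03) lay below it. In WT cells 4 genes of the list rose and 3 fell. Cd86, a ligand of CD28, was at 6.97, 4.17, 2.9, 5.61 and 4.79 CPM without cytokine and 1.85, 1.27, 1.64, 1.2 and 0.494 CPM with IL12. At these low levels there was still no overlap (log2 fold change -1.95 ± 0.32 SE, adjusted p = 8.33e-05). H2-Ob, which modulates peptide loading (log2 fold change -1.05 ± 0.16 SE, adjusted p = 4.22e-05), and Ctss, a protease that processes the invariant chain (log2 fold change -0.54 ± 0.10 SE, adjusted p = 0.000269), fell as well. B cells and myeloid cells express these genes strongly. The B cell list fell beside them in its sum, through Ighm, with Pax5, Cd22 and Fcer2a at 0 counts in all 10 libraries. The myeloid list held at most 9.9 CPM in any library. Their part in these 3 calls was not tested.

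Among the 12 largest falls were other genes. Tspan2, a tetraspanin, was at 45.3, 32.8, 36.8, 59.6 and 39.6 CPM without cytokine and 15.5, 14.1, 10, 19.2 and 5.93 CPM with IL12. The groups did not overlap, with library 74 with IL12 the lowest (log2 fold change -1.73 ± 0.27 SE, adjusted p = 5.36e-05). Btk, a kinase of antigen receptor signalling in B and myeloid cells, fell from a low level (log2 fold change -1.63 ± 0.23 SE, adjusted p = 1.75e-05), and so did Snn (log2 fold change -1.44 ± 0.27 SE, adjusted p = 0.000419) and Serpina3f, one of a cluster of similar serpin genes that could share reads (log2 fold change -1.58 ± 0.33 SE, adjusted p = 0.00153). Fgf2, a fibroblast growth factor, fell (log2 fold change -1.87 ± 0.44 SE, adjusted p = 0.00413) and was not called without libraries 73 and 74 (-1.39). Kcnj8, Endod1, Cavin3 and Cmpk2 had log2 fold changes of -1.65, -1.63, -1.60 and -1.56 and were not called without library 74 (adjusted p = 0.0848, 0.0655, 0.0562 and 0.117). Kcnj8 and Cmpk2 were also lost without libraries 63 or 73 of the group without cytokine, Cavin3 without library 74 of it, Kcnj8 and Endod1 without library 73 with IL12, and Cmpk2 without libraries 63, 68 or 70 with IL12. The genes with the smallest p among the falls included Vav3, an exchange factor of antigen receptor signalling, and Oxct1, an enzyme of ketone use. Vav3 was at 32.6, 26.7, 28.5, 31.3 and 26.1 CPM and 17.9, 17.6, 16.6, 19.6 and 17.5 CPM. The 5 IL12 libraries were close together and all below the rest (log2 fold change -0.71 ± 0.09 SE, adjusted p = 6.32e-06). Oxct1 fell from 871 ± 72.4 to 486 ± 66.1 CPM (SD, n = 5, log2 fold change -0.84 ± 0.11 SE, adjusted p = 4.97e-06).

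The genes of naive and memory cells were split. Of 29 measured, 6 rose (20.7%) and 5 fell (17.2%), with a median of -0.06, and without libraries 73 and 74 the counts were 1 and 3. Klf2, a factor that keeps T cells recirculating, was at 75.9, 58.4, 54.1, 96.3 and 58.1 CPM without cytokine and 32.2, 21.6, 27.9, 37.6 and 6.92 CPM with IL12. Again without overlap, library 74 with IL12 was far below the others (log2 fold change -1.45 ± 0.37 SE, adjusted p = 0.00784). Ccr7, the chemokine receptor for entry into lymph nodes, overlapped between groups (log2 fold change -0.18 ± 0.17 SE, adjusted p = 0.562). Tcf7, which encodes TCF1, a factor of naive and stem-like cells, was at 283, 220.2, 230.4, 309 and 215 CPM and 186, 157, 179, 163 and 88.4 CPM. It was lower in every IL12 library, most in 74, and did not pass the test (log2 fold change -0.70 ± 0.30 SE, adjusted p = 0.121). The related factor Lef1 did not pass either (log2 fold change 0.36 ± 0.15 SE, adjusted p = 0.111). Both were called with the replicate block (adjusted p = 0.048 and 0.0384) and in the fit of the 10 KO libraries alone (adjusted p = 0.0118 and 0.0246). Sox4, a transcription factor of immature lymphocytes, rose (log2 fold change 1.59 ± 0.22 SE, adjusted p = 1.24e-05). Bcl6, a repressor known from follicular helper and memory cells, was called at 0.983, 1.15, 0.792, 0.864 and 0.699 CPM and 2.08, 1.85, 1.55, 2.73 and 3.38 CPM (log2 fold change 1.35 ± 0.45 SE, adjusted p = 0.0399). At these low levels its call was lost when any 1 of the 5 libraries without cytokine was left out, and without library 73 or 74 with IL12 (1.29 and 1.18). Pecam1 fell (log2 fold change -1.12 ± 0.35 SE, adjusted p = 0.0299) and lost its call without library 74 (-0.91, adjusted p = 0.101), without 73 with IL12 (-1.11) and without 63 or 73 of the group without cytokine (-1.09 and -1.03).

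Inhibitory receptors, which mark chronically stimulated T cells, had a single call. Of 16 measured, 1 fell (6.25%), Btla, a receptor of the CD28 family (log2 fold change -0.48 ± 0.13 SE, adjusted p = 0.00999), none rose and the median was -0.16. Lag3 was at 303, 289.5, 299, 325 and 277 CPM without cytokine and 275, 251, 256, 263 and 283 CPM with IL12, with overlap (log2 fold change -0.17 ± 0.08 SE, adjusted p = 0.141). Pdcd1, which encodes PD-1, was at 95.4, 138, 125, 65.5 and 139 CPM and 106, 139.8, 148, 84.5 and 188 CPM. Its groups overlapped, with library 73 the lowest of both (log2 fold change 0.25 ± 0.19 SE, adjusted p = 0.435). Of 28 costimulatory receptors and ligands measured, 8 rose (28.6%) and 1 fell (3.57%), with a median of 0.13, and without libraries 73 and 74 the counts were 3 and 1. Beside Tnfrsf8, these included Tnfsf4, which encodes OX40 ligand (log2 fold change 1.26 ± 0.19 SE, adjusted p = 3.97e-05), and Slamf7, a receptor of activated lymphocytes (log2 fold change 1.08 ± 0.21 SE, adjusted p = 0.000634). Cd40lg, which activates B cells and dendritic cells and is better known from CD4 T cells, was at 2.23, 1.88, 1.58, 0.648 and 1.4 CPM and 4.05, 3.5, 2.5, 3.67 and 16.4 CPM. Library 74 was 4 or more times the other IL12 libraries (log2 fold change 1.94 ± 0.50 SE, adjusted p = 0.00795), and without it the gene was not called (1.13, adjusted p = 0.103).

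Genes known from other T cell lineages included some of the largest rises. Of 17 measured, 4 rose (23.5%) and 1 fell (5.88%), with a median of 0.31, and without libraries 73 and 74 the counts were 3 and 0. Il23r, Il1rl1, Tnfrsf8 and Gfi1, a transcriptional repressor (log2 fold change 0.82 ± 0.20 SE, adjusted p = 0.00546), rose. Gfi1 was not called without libraries 73 and 74 (0.59). Gata3, the factor of type 2 cells, did not pass (log2 fold change -0.39 ± 0.26 SE, adjusted p = 0.343).

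**Figure D4:**
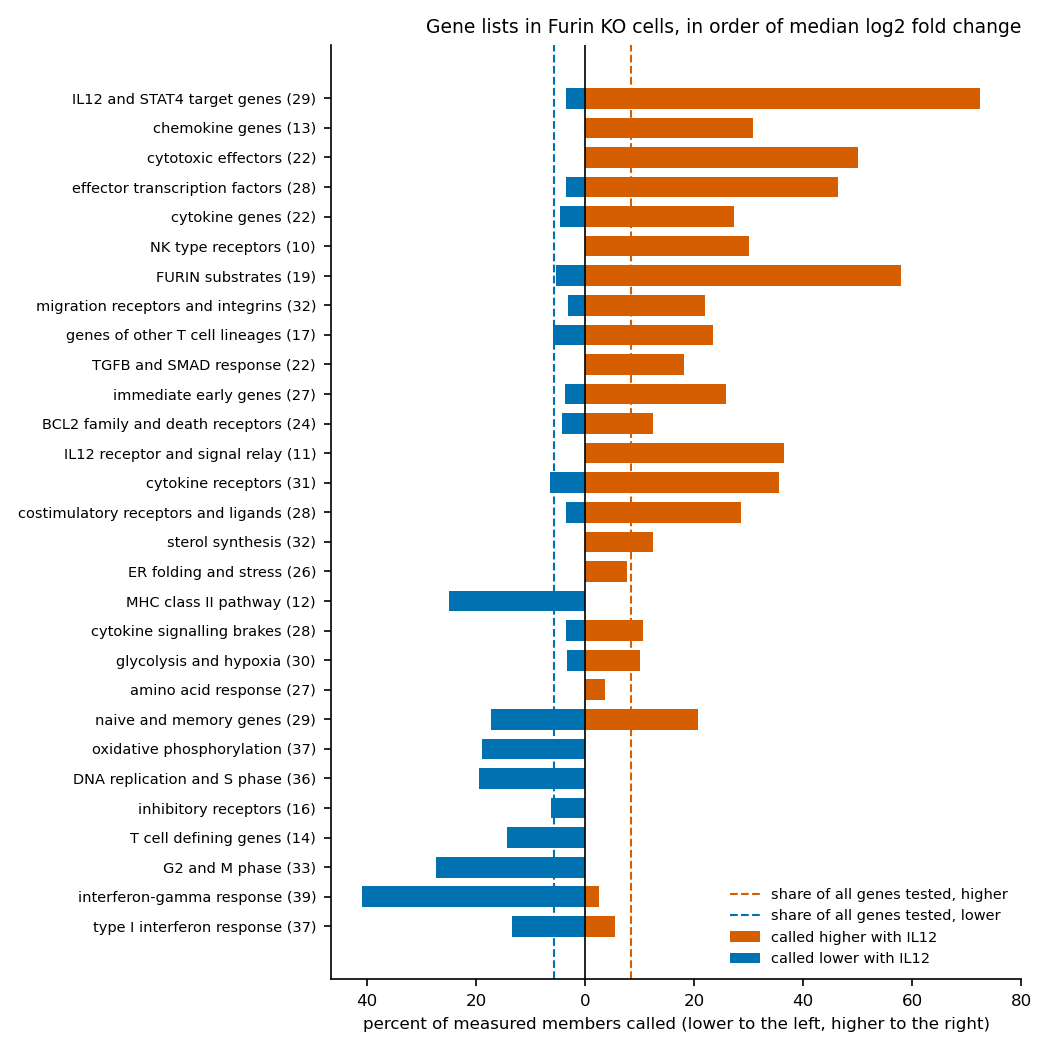
Percent of measured members that rose and that fell (x axis) for each gene list with at least 10 measured members (y axis), ordered by the median log2 fold change, with dashed lines at the 8.49% and 5.74% of all genes tested. The IL12 and STAT4 target genes hold the highest share that rose, 72.4%, and the interferon-gamma response the highest share that fell, 41%.

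Immediate early genes, which respond to activation within minutes, rose in part. Of 27 measured, 7 rose (25.9%) and 1 fell (3.7%), with a median of 0.24, and without libraries 73 and 74 the counts were 5 and 0. Jun, a subunit of the factor AP-1, was at 11.6, 11.7, 12.9, 13.6 and 8.99 CPM without cytokine and 33.7, 27.4, 31.8, 46.1 and 68.4 CPM with IL12. Every IL12 library held more than every other (log2 fold change 1.82 ± 0.27 SE, adjusted p = 3.31e-05). Junb, another AP-1 subunit (log2 fold change 0.76 ± 0.13 SE, adjusted p = 0.000136), and Ier3 (log2 fold change 1.74 ± 0.34 SE, adjusted p = 0.00079) rose too.

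Some genes of proliferation fell, by small amounts, and most were not called. Of 36 genes of DNA replication and S phase, 7 fell (19.4%), none rose and the median was -0.14. Mcm7, a subunit of the replicative helicase, was at 495, 485, 481, 518 and 475 CPM without cytokine and 399, 413, 403, 387 and 342 CPM with IL12. All IL12 libraries were below the others, 74 the lowest (log2 fold change -0.34 ± 0.07 SE, adjusted p = 0.00202). Its partner Mcm2 fell by a like amount (log2 fold change -0.30 ± 0.07 SE, adjusted p = 0.00339). Among the 33 measured genes for the G2 and M phases, 9 fell (27.3%), none rose and the median was -0.21. Nuf2, a kinetochore protein, fell (log2 fold change -0.38 ± 0.09 SE, adjusted p = 0.00486). Without library 74, 6 and 3 genes of the lists fell, and without libraries 73 and 74, 1 of each did, when Mcm2 (-0.23) and Nuf2 (-0.32) were not called.

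Most genes of the metabolic lists were not called, though the share of oxidative phosphorylation genes that fell was above the 5.74% of all genes tested. Of 37 genes of oxidative phosphorylation 7 fell (18.9%), none rose and the median was -0.11, and without library 74 and without both 73 and 74 the counts that fell were 4 and 1. Atp5o, a subunit of ATP synthase, fell (log2 fold change -0.30 ± 0.08 SE, adjusted p = 0.00854), as did Ndufs8, a subunit of complex I (log2 fold change -0.28 ± 0.07 SE, adjusted p = 0.00776), and both calls were lost without libraries 73 and 74 (-0.28 and -0.24). Of 30 genes of glycolysis and hypoxia 3 rose (10%) and 1 fell (3.33%), with a median of 0.01, and without libraries 73 and 74 none rose and 1 fell. Hk2, the hexokinase that activated T cells induce, was at 105, 102, 110.4, 104 and 119 CPM without cytokine and 199.8, 163, 167, 250.4 and 337 CPM with IL12. Without libraries 73 and 74, which were the highest, the rise (log2 fold change 1.04 ± 0.27 SE, adjusted p = 0.00776) was not called (0.71). Eno3, an enolase known from muscle, fell (log2 fold change -0.81 ± 0.15 SE, adjusted p = 0.00044). Of 32 genes of sterol synthesis 4 rose (12.5%), with a median of 0.13, and 3 rose without library 74 and none without 73 and 74. Scd1, which makes unsaturated fatty acids, rose (log2 fold change 1.02 ± 0.25 SE, adjusted p = 0.00506), and it was not called without libraries 73 and 74 (0.89). Of 27 genes of the amino acid response 1 rose (3.7%), the transporter Slc38a2 (log2 fold change 0.51 ± 0.10 SE, adjusted p = 0.00066).

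The remaining lists had few calls in number, and the shares that rose ran from 7.69% to 30%, against 8.49% of all genes tested. Of 10 measured receptors of natural killer cell type, 3 rose (30%), none fell and the median was 0.49, and none was called without libraries 73 and 74. Of 22 genes of the TGFB and SMAD response 4 rose (18.2%), with a median of 0.30, and the same number rose without libraries 73 and 74. Of 28 inhibitors of cytokine signalling 3 rose (10.7%) and 1 fell (3.57%), with a median of 0.04, and 1 rose and none fell both without library 74 and without 73 and 74. Of 24 genes of the BCL2 family and death receptors, which set cell survival, 3 rose (12.5%) and 1 fell (4.17%), with a median of 0.23. Without library 74 the counts were 1 and 1, and without 73 and 74 they were 0 and 1. Of 26 genes of protein folding and stress in the endoplasmic reticulum 2 rose (7.69%), with a median of 0.11, and 1 rose without library 74 and none without 73 and 74.

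Known substrates of FURIN were looked at for the same cells. Of 19 measured, 11 rose (57.9%) and 1 fell (5.26%), with a median of 0.44. Without library 74 the counts were 6 and 1, and without 73 and 74 they were 5 and 1. Transcript counts say nothing of whether the proteins were cleaved. Beside Inhba, Pdgfa, which encodes a platelet-derived growth factor, rose from below 1 CPM (log2 fold change 2.69 ± 0.51 SE, adjusted p = 0.000618, and 3.32 without library 74 of that group). Igf1r, a receptor for insulin-like growth factors, was at 26.5, 29.5, 27.7, 30.7 and 32.1 CPM without cytokine and 14.8, 17.6, 18.2, 10.2 and 9.72 CPM with IL12. The groups did not overlap, with 73 and 74 with IL12 the lowest (log2 fold change -1.05 ± 0.21 SE, adjusted p = 0.000833).

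The WT cultures were set beside the KO cultures for the same question, and the difference of the responses was tested in 1 model. In WT cells 2209 genes were called (18.9%), of which 1102 were also called in KO cells, all in the same direction. These were 66.1% of the KO calls and 49.9% of the WT calls. Of the 1668 genes called in KO cells 1611 (96.6%) had the same sign in WT cells. The median absolute log2 fold change of the 1668 was 0.54 in KO and 0.47 in WT cells. They were selected by their call in KO cells, which favours larger values there, so these medians do not compare the strength of the responses. Across the 11718 genes, which are not independent replicates, Pearson's r of both sets of fold changes was 0.87. No gene passed the test of the difference between the responses (0% of those tested), with 513 genes (4.38%) at an unadjusted p under 0.05. DESeq2 and limma-voom also called 0 genes, with 512 and 488 at an unadjusted p under 0.05. This does not show that the responses were alike, since a gene's difference has to be large against its SE to pass.

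**Figure D5:**
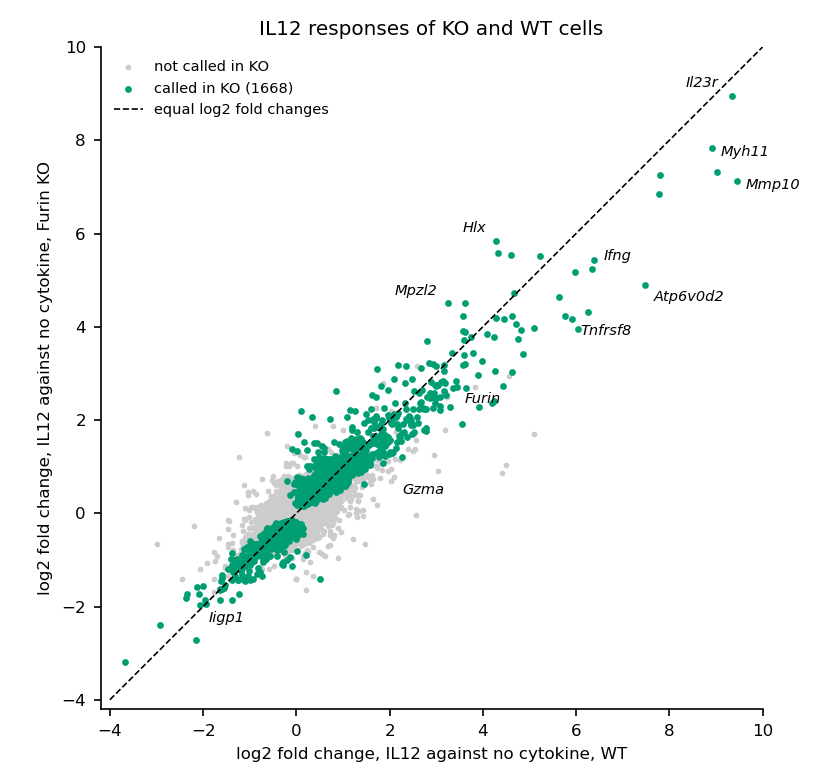
Log2 fold change with IL12 in WT cells (x axis) against that in KO cells (y axis) for the 11718 genes tested, with the line of equal change dashed. The 1102 genes called in both genotypes changed in the same direction in both, and no gene passed the test of the difference.

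The values of the genes described above stood as follows in WT cells. Furin had a log2 fold change of 3.44 in WT against 2.72 in KO cells, a difference with an unadjusted p of 0.0949 and an adjusted p of 0.997 by edgeR. Ifng stood at 6.37 against 5.43 (unadjusted p of the difference 0.162), Tbx21 at 1.83 against 1.62 (0.431) and Il12rb2 at 1.29 against 1.75 (0.209), and each adjusted p by edgeR was 0.997. The WT libraries with IL12 were uneven. In the order 62, 67, 71, 72 and 75, Ifng was at 276, 302, 750.5, 1370 and 1282 CPM and Tnfrsf8 at 16, 23.3, 133, 123 and 159 CPM. Libraries 62 and 67 were also the lowest for Furin, given above, but not for Prf1 (212, 201, 211, 193 and 316 CPM). The part of this spread in the fold changes of either genotype was not tested. The fall of Irgm1 was -1.02 in WT and -0.97 in KO cells, and that of Iigp1 -2.06 and -1.97. In WT cells, 16 of the 39 interferon-gamma response genes fell and 2 rose, and 23 of the 29 IL12 and STAT4 targets rose and 1 fell. Il2 was called in WT (1.80, adjusted p = 0.0153) and not in KO cells (0.76), and Gzma likewise (2.10 and 0.77), but the difference did not pass for either (unadjusted p = 0.127 and 0.155).

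The 5 genes with the smallest p for the difference had no call after adjustment (0.997 each). Gnaq, a G protein subunit that couples receptors to phospholipase C, was at 19.8, 24.8, 22.3, 13.4 and 26 CPM without cytokine and 19.8, 22.4, 22, 21.8 and 19.2 CPM with IL12 in KO cells, with overlap, and at 15.1, 12.9, 8.72, 10.7 and 13.5 CPM and 23.6, 16.9, 24, 18.9 and 24.2 CPM in WT cells. The difference of the responses was -0.83 (SE 0.21, unadjusted p = 0.000499), and the WT libraries without cytokine were mostly below the KO ones. Chchd7, a protein of the mitochondrial intermembrane space, had -0.24 in KO and 0.40 in WT cells (unadjusted p = 0.000932). Tuba1c, an alpha-tubulin, had -0.02 and 0.38 (unadjusted p = 0.0015). Rpl27, a ribosomal protein, had -0.33 and 0.11 (unadjusted p = 0.00159), and Isoc2a -0.31 and 0.07 (unadjusted p = 0.0017). Rpl27 fell in KO cells, a call that was lost without library 73 with IL12 (-0.29), in which the share of ribosomal protein genes was the lowest. In WT cells with IL12 Rpl27 was at 390, 419, 468, 609 and 620 CPM (libraries 62, 67, 71, 72 and 75). The ribosomal protein shares of that group were highest in libraries 72 (11.1%) and 75 (11.6%). The part of these shares in the difference was not tested.

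TGFB1 added to cells of the same label shares the 5 libraries without cytokine, so its values are only set beside those of IL12. Furin was at 1.26 with TGFB1 (adjusted p = 0.00293) and 2.72 with IL12. Gzmb was at -5.21 (adjusted p = 1.05e-08) and 2.38, while Ifng was at -0.02 (adjusted p = 0.981) and 5.43.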

How the data were processed

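Raw read counts of 55573 Ensembl genes in 30 libraries, all whole numbers, were deposited as a single table. The tools named in the submitters' processing notes are STAR, Trim Galore, FastQC and DESeq2 1.24.0, with build GRCm38, and per the labels' protocols the libraries were poly(A)-selected and directional. Which counter and annotation release were used, and whether with strand, is not given in the sources used here. Genes that overlap another, on either strand, may therefore share reads. Columns were matched to samples by their titles.

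From the deposited counts, edgeR 4.0.16 (R 4.3.3) filtered genes (filterByExpr, minimum count 10), which left 11718 genes with 99.88% of the counts, scaled libraries by TMM and fitted all 30 libraries with 1 mean per group by quasi-likelihood. Contrasts were two-sided, with Benjamini-Hochberg adjustment over all genes tested. The biological coefficient of variation was 14.3%. CPM use the TMM factors, and principal components used log2 CPM with a prior count of 1. No 2 libraries were copies. Symbols came from GENCODE vM21. The fits were tested on simulated counts. limma 3.58.1 and DESeq2 1.42.0 gave alternative fits.

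The genes named are key genes of the pathway, the 12 largest rises and falls and the 6 smallest p in each direction among called genes with a mean of at least 4 CPM, and up to 5 called members per list. They also include the 5 smallest p for the difference between the IL12 responses of KO and WT cells. Some genes that this rule selects are not reported here. The members of the comparison and all lists were chosen with earlier results of these data known, so a list's count is no independent support. Alternatives changed the normalization, the filter, the tool, the samples left out, the depth and the replicate block. The fits without libraries 73 and 74 together, and the list counts without 74, were added after seeing the data.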

Additional observations from a re-analysis of the deposited data

Results flagged for a closer look

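For the 125 genes named, each group of 5 KO libraries was examined for a highest or lowest library whose gap to the nearest other, over the range of the group, passed Dixon's 95% critical value. That makes 250 groups, of which chance marks about 1 in 20. In all 41 were marked, and library 74 of the IL12 group was the highest in 29 of them and the lowest in 3.

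It was the highest for the secreted factors Ifng (1425 CPM), Ccl9 (197.3 CPM), Ccl5 (23.89 CPM), Inhba (16.14 CPM) and Il1a (7.825 CPM). Among receptors and their adaptors it was the highest for Il2ra (1774 CPM), Myd88 (208.6 CPM), Il1rl1 (100.8 CPM), Il18rap (86.07 CPM), Slamf7 (51.81 CPM), Cxcr6 (35.58 CPM), Il23r (18.53 CPM), P2rx7 (5.683 CPM), Tnfsf4 (79.4 CPM) and Cd40lg (16.39 CPM). Among transcription factors and early genes the same held for Junb (454.7 CPM), Irf8 (307.2 CPM), Tbx21 (177.3 CPM), Batf3 (170.3 CPM), Ier3 (29.57 CPM), Sox4 (23.56 CPM) and Hlx (9.719 CPM). The others were Furin (463.5 CPM), Prf1 (389.7 CPM), Atp6v0d2 (91.02 CPM), Usp18 (77.43 CPM), Mmp10 (28.5 CPM), Myh11 (24.13 CPM) and Mgll (13.67 CPM). Library 74 with IL12 was the lowest for Nuf2 (70.75 CPM), Ctss (59.14 CPM) and Btk (1.647 CPM).

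The other marks were spread over other libraries. With IL12, library 73 was the highest for Slc38a2 (349.6 CPM) and the lowest for Id3 (44.33 CPM), and library 63 the lowest for Chchd7 (18.85 CPM). Without cytokine, library 73 was the highest for the interferon-induced genes Tgtp1 (42.32 CPM) and Usp18 (7.126 CPM) and for Myh11 (0.108 CPM), and the lowest for Slamf7 (12.31 CPM). Library 70 was the highest for Sox4 (7.653 CPM) and library 74 for Mmp10 (0.1998 CPM), where 1 or 2 counts made the mark.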

How the results depend on the processing

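Of the 125 genes named, 102 were called, 49 of them in every alternative run, 53 lost the call in at least 1, and no called gene changed direction. Of the genes not called, 8 gained a call in at least 1 alternative, Tnf in 12 of 23, Il2ra in 5, Tcf7 and Lef1 in 2 each and Il2, Lag3, Socs1 and Xcl1 in 1 each. A minimum fold change of 1.5 (glmTreat) left 195 genes called in KO cells, 177 higher and 18 lower, and 264 in WT cells. The fit of the 10 KO libraries alone called 2365, 1312 higher and 1053 lower. Leaving out 1 library at a time gave 1043 to 1612 calls in KO cells, 668 to 1010 higher and 375 to 602 lower, with the fewest each time without library 74 of the IL12 group, and 1324 to 2727 calls in WT cells. Without both KO libraries numbered 74 the counts were 807, 510 and 297, and without IL12 libraries 73 and 74 they were 546, 378 and 168. Limits of depth weigh most on genes near 0 counts. Uncalled genes that changed sign were Gnaq (0.02 with limma-voom, 0.10 without both libraries 74, 0.01 without 73 and 74, -0.14 to 0.07 with 1 library left out), Tuba1c (0.03 on thinned counts, -0.05 to 0.00 with 1 library left out), Id3 (0.01 without 73 and 74, -0.15 to 0.01 with 1 library left out) and Il12rb1 (-0.02 to 0.25 with 1 library left out). The cause of these changes was not tested. The replicate block, by title number, gave 2152 calls in KO cells (1217 higher and 935 lower) and 2801 in WT cells. Same-numbered libraries deviated together with a correlation of 0.05 to 0.43, and 4 of 5 correlated best with their own number, but number 70 was at 0.05 and the labels name no animals, so the numbers were not used as pairs. The difference between the IL12 responses of KO and WT cells had 0 calls in all alternatives. KO and WT cells were not tested against each other within a treatment.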
